A study of Mus musculus with 9 samples.

Results

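Interferon-stimulated genes, the sensors that recognise viral RNA and the interferon receptor with its signalling factors were followed in mouse primordial germ cells, in Max knockdown embryonic stem (ES) cells and in control ES cells. The set was a list of 36 genes, each matched to the array by its symbol through the RefSeq accession printed for the probe. Of these, 32 had at least 1 probe, among 32450 genes or unnamed transcript identifiers on the array, and 27 were tested, among 20443 tested in all. Oas1b, Mx1, Mx2 and Ddx60 had no probe with a matching accession and were not analysed here. RNA was measured on 9 one-colour Agilent arrays, 3 per group, which the submitters described as biological replicates. The primordial germ cells (PGCs, the embryonic precursors of eggs and sperm) came from male E13.5 genital ridges of MCH x C57BL6/J embryos carrying the Oct4ΔPE-GFP transgene, an Oct4 enhancer reporter that marks germ cells, and were trypsin-treated and sorted as live GFP-positive single cells. Max knockdown ES cells were VV3 cells, 1 male 129SV line with a Venus reporter under the Vasa (Ddx4) promoter, transfected with siRNA against Max using Lipofectamine RNAiMAX and sorted after 3 days as live, single, Venus-positive cells. Control ES cells were VV3 cells given the AllStars non-silencing siRNA in the same way and sorted as live single cells, with no gate on Venus. The siRNA and the reporter gate therefore differ together between the ES cell groups and cannot be told apart. Strain, origin and transfection all differ between PGCs and either ES cell group: both ES cell groups received an siRNA, which is a short double-stranded RNA, and the labels describe none for PGCs.

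Cells detect foreign RNA with cytosolic helicases, of which RIG-I (Ddx58) and MDA5 (Ifih1) signal through the mitochondrial adaptor MAVS to the transcription factors IRF3 and IRF7, which switch on interferon genes. Secreted type I interferon binds the receptor pair IFNAR1 and IFNAR2, and the kinases on that receptor activate STAT2, which works with IRF9 at the interferon-stimulated response element (ISRE) of antiviral genes. Pluripotent stem cells are known to make little interferon on viral infection and to carry some antiviral genes at a basal level. MAX is the obligate partner of MYC proteins and also works in a repressor complex with MGA, binding the E-box CACGTG.

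The promoters of several genes described below contain ISRE letters, and 6 of them are printed to show where those letters lie. Sequences are from RefSeq, build GRCm38.p6, which held a promoter for 29 of the 36 genes. Each line is the 150 bases before the annotated transcription start, 5′ to 3′ on the strand of the gene, with matches to the ISRE core in capitals. The core was searched on both strands as GAAA, any 2 bases and GAAA, which reads TTTC, any 2 bases and TTTC where it lies on the other strand. Overlapping matches run together.
Isg15 (chr4:156200819-156200968, minus strand): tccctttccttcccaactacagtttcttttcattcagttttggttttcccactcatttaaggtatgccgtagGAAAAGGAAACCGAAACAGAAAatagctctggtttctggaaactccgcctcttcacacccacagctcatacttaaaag
Oas1a (chr5:120907526-120907675, minus strand): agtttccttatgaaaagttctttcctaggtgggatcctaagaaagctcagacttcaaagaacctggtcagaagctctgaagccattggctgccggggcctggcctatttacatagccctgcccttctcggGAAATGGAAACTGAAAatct
Oas1g (chr5:120887614-120887763, minus strand): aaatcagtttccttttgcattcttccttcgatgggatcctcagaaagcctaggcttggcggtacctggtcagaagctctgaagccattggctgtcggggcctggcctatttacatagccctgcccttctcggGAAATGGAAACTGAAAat
Oas3 (chr5:120777660-120777809, minus strand): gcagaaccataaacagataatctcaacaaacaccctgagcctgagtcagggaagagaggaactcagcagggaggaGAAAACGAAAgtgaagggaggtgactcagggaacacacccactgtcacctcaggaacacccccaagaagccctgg
Bst2 (chr8:71537473-71537622, minus strand): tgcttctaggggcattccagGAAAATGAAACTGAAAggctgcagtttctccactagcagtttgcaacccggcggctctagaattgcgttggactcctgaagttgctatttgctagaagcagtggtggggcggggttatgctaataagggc
Rsad2 (chr12:26456453-26456602, minus strand): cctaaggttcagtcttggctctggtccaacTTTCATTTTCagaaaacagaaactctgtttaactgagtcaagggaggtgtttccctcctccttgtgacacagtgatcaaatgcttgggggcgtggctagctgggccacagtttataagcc
Isg15 is shown for a gene that rose in PGCs, Oas1a and Oas3 for genes that fell there, Bst2 for one that fell in both PGCs and Max knockdown cells, and Rsad2 for one that was above background on no PGC array. Oas1g is shown because its window shares a run of 56 bases with that of Oas1a, ISRE letters included, although its brightest probe was above background on only 1 of 9 arrays. In windows of 250 bases before to 50 bases after the start, the ISRE letters occurred in 15 of the 29 genes (51.7%) and in 1079 of 27025 genes of the whole table (3.99%). The match in Ifih1, Ddx58, Eif2ak2 and Ifitm3 lay after the start. The E-box CACGTG, its own reverse complement, occurred in 0 of the 29 genes and in 8.09% of all genes. These matches are letters in a window and not measured binding sites, and no match says only that the letters are not in that window.

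All levels below are log2 signals relative to the 75th percentile of the same array, so that 0 is that percentile. Differences are the first-named group minus the second, with the SE and adjusted p of a limma fit across all 20443 tested genes (Benjamini-Hochberg), and a gene is said to have risen or fallen where that adjusted p was under 0.05. An exact permutation test of 3 arrays against 3 cannot give a p below 0.1, so none is quoted. The arrays had 58.2% to 67.6% of spots well above background and 0 saturated spots, and replicates of a group correlated at r = 0.991 to 0.995. Max itself averaged 3.66 ± 0.10 in PGCs, 0.85 ± 0.27 in Max knockdown ES cells and 2.81 ± 0.06 in control ES cells (SD, n = 3 each), and its 3 knockdown arrays lay below all others. All 7 germ cell markers (such as Dppa3 and Ddx4, the gene behind the Venus gate) rose in PGCs over control ES cells, and 4 of 7 rose in Max knockdown cells. Of all tested genes 43.2% and 18.2% rose in these comparisons. Of 10 gonadal somatic markers 6 rose and 1 fell in PGCs over control, against 43.2% and 32.4% of all tested genes. The summed linear level of that list was 4.66 to 8.53 in PGCs and 4.21 to 4.62 in control ES cells. Amh, a Sertoli cell hormone, was above background on 3 of 3 PGC arrays and on 0 of 3 arrays of each ES cell group. Of 6 tested fibroblast markers 4 fell in Max knockdown cells, against 21.9% of all tested genes. Their summed level was 1.22 to 1.30 there and 3.098 to 3.880 in control ES cells. In PGCs over control 5 of these 6 fell and 1 rose (summed level 1.04 to 1.34), against 32.4% and 43.2% of all tested genes. Of 4 tested endothelial markers 3 fell in PGCs over control, with a summed level of 5.30 to 6.56 in PGCs, 10.4 to 11.6 in Max knockdown ES cells and 14.0 to 15.7 in control ES cells, and in Max knockdown cells over control 2 rose (Tie1 by 2.84 and Tek by 1.13 log2 units) and 1 fell. Of 8 tested leukocyte markers 3 rose and 3 fell in PGCs over control and 0 were called in Max knockdown cells: Tyrobp was above background on 3 of 3 PGC arrays and no ES cell array, Laptm5 on all ES cell arrays and no PGC array, and C1qa and Lyz2 on none. In PGCs over control 75% of the endothelial and 75% of the leukocyte markers were called in either direction, near the 75.6% of all tested genes. In Max knockdown cells these shares were 75% and 0%, against 40.1% of all tested genes. The part of such other cells in the differences below was not tested, and in bulk RNA fewer cells of a type and less RNA per cell cannot be told apart.

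In PGCs over control ES cells, 7 of the 27 tested genes rose and 18 fell, with Ifnar1 counted as a fall by its brightest probe. The genes that rose were Ddx58, Ifitm1, Ifitm2, Isg15, Irf1, Irf3 and Adar, with Ifitm1 17.6-fold and Ddx58 12.3-fold higher, of which Ifitm2, Irf3 and Adar had the opposite sign on the spike-in scale described below. Those that fell included all 5 tested Oas family genes, Usp18, Eif2ak2, Stat2, Irf9 and the receptor gene Ifnar2. Among all tested genes 43.2% rose, 32.4% fell and 75.6% did either, so that 18 falls among 27 (66.7%) stand beside a share of 32.4% and 7 rises (25.9%) beside a share of 43.2%. At a difference of at least 2-fold, 4 rose and 15 fell, against 19.8% and 20.2% of all genes. The median log2 difference of the 27 genes was -1.05, or -0.91 with the 3 genes dim on every PGC array set at their bound, against 0.18 for all tested genes. The split depends on scale: when arrays were scaled to the spike-in RNAs in place of the 75th percentile, the median of all genes moved to -0.77, and 2 of the 27 rose while 18 fell, against 5.68% and 36.5% of all genes. Oas3, Irf7, Rsad2, Dhx58 and Usp18 passed the filter through ES cell arrays, where they were higher, so the filter kept them because of groups in which they were higher than in PGCs. Among the 22 genes above background on all 9 arrays 8 rose and 13 fell, against 46.9% and 30.7% of all genes filtered in that way. Arrays of PGCs and control ES cells did not overlap for 26 of the 27 genes, against 78.5% of all tested genes.

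In Max knockdown over control ES cells, 4 of the 27 genes rose and 10 fell. Oas1a, Oas2, Ddx58 and Ifnar1 rose, by 0.58 to 1.15 log2 units. Oasl2, Ifitm1, Ifitm3, Irf1, Stat2, Bst2, Dhx58, Mavs, Zbp1 and Ifnar2 fell, with Zbp1 3.62-fold and Oasl2 2.63-fold lower and the other 8 less than 2-fold. Of all tested genes 18.2% rose, 21.9% fell and 40.1% did either, against 14.8%, 37.0% and 51.9% of the 27. The median log2 difference was -0.32, against -0.07 for all tested genes. With the slide as a block 7 rose and 14 fell (background 46.7% in either direction), and with spike-in scaling Zbp1 alone was called (background 4.92%); both are taken up after the single genes. The arrays of the ES cell groups did not overlap for any of the 14 called genes, nor for 16 of the 27 in all, against 54.1% of all tested genes. At 2-fold or more 3 rose and 2 fell, against 6.32% and 4.83% of all genes.

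In PGCs over Max knockdown ES cells, 10 of the 27 genes rose and 14 fell, where 44.9% and 31.4% of all tested genes did (76.3% in either direction). Ifnar1 is again counted as a fall, and Zbp1 as a rise, each by its brightest probe. The falls include Rsad2, above background on 0 of 3 PGC arrays and 1 of 3 Max knockdown arrays, for which no bound could be set. They also include Irf7, which passed the filter through the Max knockdown arrays alone. Among the 22 genes above background on all 9 arrays 10 rose and 9 fell, against 48.4% and 29.4%. On the spike-in scale 4 of the 27 rose and 14 fell, against 4.9% and 35.6% of all genes, whose median moved to -0.76, and Ifitm2, Ifitm3, Ifih1 and Mavs had the opposite sign. At 2-fold or more 6 rose and 12 fell, against 20.5% and 19.7%, and the groups did not overlap for 24 of the 27, against 78.5%. The 3 comparisons share arrays, so their counts are not independent of each other. Set side by side, 7 genes fell in both PGCs and Max knockdown cells relative to control (Oasl2, Stat2, Bst2, Dhx58, Mavs, Zbp1 and Ifnar2) and 1 rose in both (Ddx58). Ifitm1 and Irf1 fell in Max knockdown cells and rose in PGCs, while Oas1a, Oas2 and the brightest probe of Ifnar1 rose in Max knockdown cells and fell in PGCs. Both differences subtract the same control arrays, and the share of all tested genes with each such pattern was not computed. The PGC falls of Zbp1 and Mavs and the knockdown falls of Dhx58, Stat2 and Irf1 were lost under some alternative settings. Genes with ISRE letters and genes without them occurred among both kinds of call: of 11 tested genes with the letters 3 rose and 6 fell in PGCs, and of 12 without them 4 rose and 8 fell. In Max knockdown cells 2 rose and 3 fell of those with the letters, and 1 rose and 5 fell of those without. Oas2, Dhx58, Usp18 and Zbp1, the 4 tested genes with no promoter sequence, all fell in PGCs, and 1 rose and 2 fell in Max knockdown cells. Of all tested genes 43.2% rose and 32.4% fell in PGCs over control, and 18.2% and 21.9% did in Max knockdown cells.

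**Figure D1:**
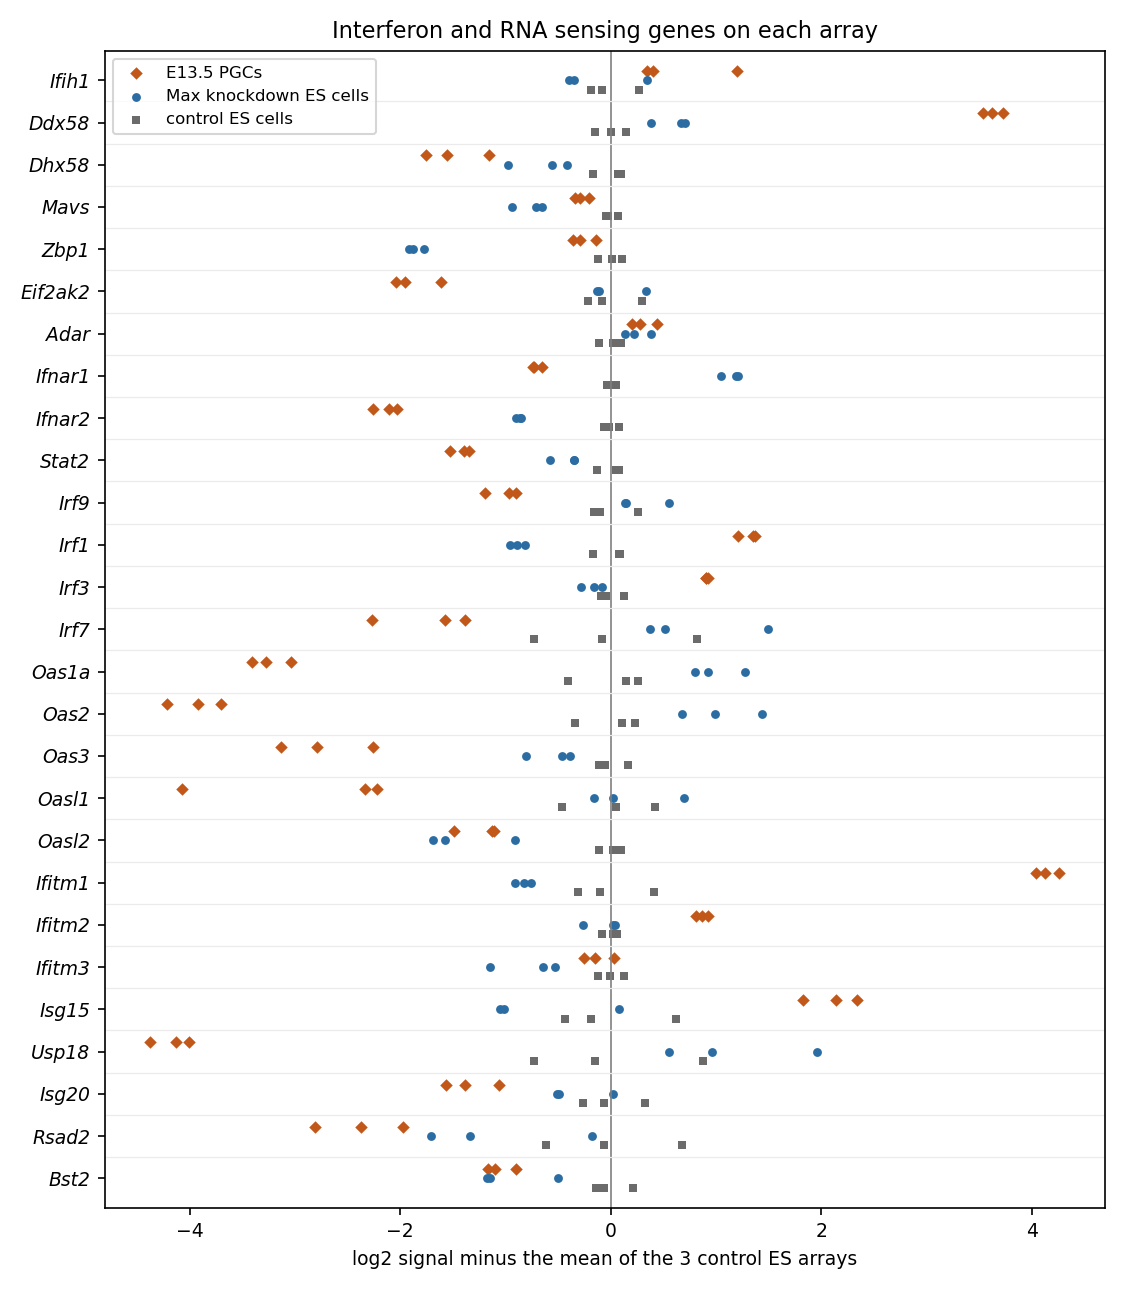
Log2 signal of each tested gene on each of the 9 arrays, shown as the distance from the mean of the 3 control ES arrays (x axis, log2 units), with 1 row per gene in order of role; diamonds are E13.5 PGCs, circles Max knockdown ES cells and squares control ES cells. Ddx58 and Ifitm1 stand far right in PGCs, the Oas genes and Usp18 far left, and the Zbp1 knockdown arrays lie left of every PGC and control array.

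RNA sensors behaved differently from one another. Ddx58 encodes RIG-I, which recognises short RNA with triphosphate ends. Its levels were 4.24, 4.32 and 4.43 in PGCs, 1.38, 1.08 and 1.41 in Max knockdown ES cells, and 0.71, 0.56 and 0.85 in control ES cells. The 3 groups did not overlap, with PGCs highest and control ES cells lowest. Ddx58 rose in PGCs over control (3.63 ± 0.12, adjusted p = 4.3e-08) and over Max knockdown cells (3.04 ± 0.12, adjusted p = 1.1e-07), and rose in Max knockdown cells over control (0.58 ± 0.12, adjusted p = 0.0053). A further probe for the same gene gave 1.85 for PGCs and 0.98 for Max knockdown cells over control, so the direction was shared and the size was not.

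Ifih1 encodes MDA5, the sensor of long double-stranded RNA. It measured -4.21, -4.15 and -3.36 in PGCs, -4.91, -4.95 and -4.21 in Max knockdown ES cells, and -4.64, -4.74 and -4.29 in control ES cells. PGC arrays lay above all ES cell arrays, with PGC 1 and Max knockdown 4 nearly level, but the difference from control did not pass the test (0.65 ± 0.28, adjusted p = 0.059), and that from Max knockdown cells did (0.79 ± 0.28, adjusted p = 0.028), a call lost under 6 alternative settings (adjusted p = 0.052 to 0.17), among them those without Max knockdown 1, Max knockdown 2 or PGC 3. Between the ES cell groups the arrays overlapped (-0.13 ± 0.28, adjusted p = 0.74). Dhx58 encodes LGP2, a related helicase without signalling domains that modulates the other sensors. On its probe the values were -5.58, -4.98 and -5.37 in PGCs, -4.80, -4.38 and -4.23 in Max knockdown ES cells, and -3.99, -3.75 and -3.72 in control ES cells, and no PGC array was well above background. In PGCs it was at least 2.44-fold lower than in control ES cells and at least 1.56-fold lower than in Max knockdown cells. It passed the filter through the ES cell arrays alone, where it was higher, so no p is given for these differences. In Max knockdown cells Dhx58 fell (-0.65 ± 0.19, adjusted p = 0.025), a call that was lost without the slide 2 ES arrays (adjusted p = 0.062) or without any of 3 single arrays (Max knockdown 1, control 2 or control 3; adjusted p = 0.074 to 0.077).

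Tlr3, the endosomal receptor of double-stranded RNA, was well above background on 1 of 9 arrays. That array was PGC 2, at -2.41, while PGC 1 and PGC 3 read -7.80 and -6.74 and the 6 ES cell arrays -7.99 to -7.06, so no difference was tested. Zbp1 encodes a sensor of left-handed (Z-form) nucleic acid that triggers cell death. Its brightest probe gave -1.36, -1.14 and -1.29 in PGCs, -2.88, -2.91 and -2.77 in Max knockdown ES cells, and -0.89, -0.98 and -1.12 in control ES cells. On this probe the Max knockdown arrays lay below every other array. Zbp1 fell in Max knockdown cells (-1.85 ± 0.10, adjusted p = 8e-06), the largest fall among the 27 genes in that comparison. In PGCs the fall was small on this probe (-0.26 ± 0.10, adjusted p = 0.033) and was not called under 11 of the alternative settings (adjusted p = 0.05 to 0.11), whereas a further Zbp1 probe gave -2.82 in PGCs and -2.40 in Max knockdown cells, both past the test. That further probe averaged -4.37 in PGCs and -3.95 in Max knockdown cells, and this difference did not pass the test (-0.42, adjusted p = 0.09). The rise in PGCs over Max knockdown cells thus rests on the brightest probe.

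Of the enzymes that act directly on double-stranded RNA, Eif2ak2 fell in PGCs and Adar depended on the probe. Eif2ak2 encodes PKR, a kinase that stops translation when it binds double-stranded RNA. It read -4.12, -3.78 and -4.20 in PGCs, -2.30, -2.28 and -1.83 in Max knockdown ES cells, and -2.25, -2.39 and -1.87 in control ES cells. PGC arrays lay below all ES cell arrays (-1.87 ± 0.19, adjusted p = 2.2e-05 against control), and the ES cell groups overlapped (0.03 ± 0.19, adjusted p = 0.92). Adar, an editing enzyme that converts adenosine to inosine in double-stranded RNA and so hides the cell's own RNA from MDA5, read 1.91, 1.84 and 2.08 in PGCs, 1.78, 1.86 and 2.03 in Max knockdown ES cells, and 1.52, 1.73 and 1.66 in control ES cells. The rise in PGCs was small (0.31 ± 0.11, adjusted p = 0.026) and a further probe gave a fall of similar size (-0.31), so the direction of Adar in PGCs depended on the probe. Between the ES cell groups the arrays did not overlap, but the difference did not pass the test on the brightest probe (0.25 ± 0.11, adjusted p = 0.093), while it did on the further probe (0.40, adjusted p = 0.033) and on the mean of probes (0.32, adjusted p = 0.039).

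Mavs, the adaptor that both RIG-I and MDA5 need, measured 0.56, 0.43 and 0.47 in PGCs, -0.17, 0.12 and 0.05 in Max knockdown ES cells, and 0.73, 0.83 and 0.74 in control ES cells. The 3 groups were separate, with Max knockdown cells lowest. Mavs fell in Max knockdown cells (-0.77 ± 0.10, adjusted p = 0.00049) and rose in PGCs relative to those cells (0.49 ± 0.10, adjusted p = 0.0015). Against control ES cells its fall in PGCs was small (-0.28 ± 0.10, adjusted p = 0.028) and was not called under 8 alternative settings (adjusted p = 0.053 to 0.09).

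The transcription factors downstream of the sensors and of the receptor were mostly above background. Irf3, the constitutively made factor that MAVS signalling activates, had levels of 3.99, 3.99 and 4.01 in PGCs, 3.00, 2.80 and 2.93 in Max knockdown ES cells, and 3.21, 3.00 and 3.04 in control ES cells. The PGC arrays lay close together and above every ES cell array (0.91 ± 0.09, adjusted p = 2.2e-05 against control and 1.09 ± 0.09, adjusted p = 7.6e-06 against Max knockdown), a rise that was lost on the spike-in scale (-0.04). The ES cell groups overlapped (-0.17 ± 0.09, adjusted p = 0.17). Irf7, an interferon-induced relative that amplifies the response, stood at -6.11, -6.80 and -5.92 in PGCs, -4.02, -4.17 and -3.04 in Max knockdown ES cells, and -5.27, -4.62 and -3.72 in control ES cells. It was well above background on 0 PGC arrays, on all 3 Max knockdown arrays and on 2 of 3 control arrays. In PGCs Irf7 was at least 1.55-fold lower than in control (adjusted p = 0.0062) and at least 2.68-fold lower than in Max knockdown cells, the group through which alone it passed the filter, so no p is given for that difference. Its knockdown arrays overlapped those of the control (0.80 ± 0.44, adjusted p = 0.19), and array 4 of the knockdown and array 3 of the control were each the highest of their group.

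Irf1, induced by both interferon classes, read 4.25, 4.39 and 4.41 in PGCs, 2.09, 2.22 and 2.15 in Max knockdown ES cells, and 3.13, 2.87 and 3.12 in control ES cells. The 3 groups were separate, with PGCs highest and Max knockdown cells lowest. It rose in PGCs (1.31 ± 0.10, adjusted p = 4e-06 against control; 0.36, adjusted p = 0.61, on the spike-in scale) and fell in Max knockdown cells (-0.89 ± 0.10, adjusted p = 0.00028). A further Irf1 probe rose in PGCs too (2.31) but gave 0.54 in Max knockdown cells (adjusted p = 0.17), and on the mean of both probes the knockdown call was lost (adjusted p = 0.39).

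Stat2 and Irf9 encode subunits of the ISRE-binding complex. Stat2 measured 0.34, 0.47 and 0.52 in PGCs, 1.28, 1.52 and 1.51 in Max knockdown ES cells, and 1.73, 1.94 and 1.92 in control ES cells. PGC arrays were lowest, Max knockdown arrays intermediate and control arrays highest, with no overlap. It fell in PGCs (-1.42 ± 0.10, adjusted p = 3e-06) and, less far, in Max knockdown cells (-0.43 ± 0.10, adjusted p = 0.011); that second call was lost without the slide 2 ES arrays (adjusted p = 0.056). Irf9 read -0.65, -0.35 and -0.42 in PGCs, 0.68, 0.69 and 1.10 in Max knockdown ES cells, and 0.44, 0.39 and 0.81 in control ES cells. PGC arrays lay below all others (-1.02 ± 0.16, adjusted p = 0.00038 against control), and the ES cell groups overlapped (0.28 ± 0.16, adjusted p = 0.2).

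The receptor chains went opposite ways in Max knockdown cells. Ifnar1 encodes the chain that binds the kinase TYK2, and its brightest probe gave -1.01, -0.94 and -1.02 in PGCs, 0.93, 0.76 and 0.91 in Max knockdown ES cells, and -0.29, -0.32 and -0.23 in control ES cells. Max knockdown arrays were highest and PGC arrays lowest, with no overlap, and Ifnar1 rose in Max knockdown cells (1.15 ± 0.08, adjusted p = 3e-05). Its 2 further probes rose in Max knockdown cells as well, by 0.63 and 0.62. In PGCs the brightest probe fell (-0.71 ± 0.08, adjusted p = 4.7e-05) while both further probes rose (1.08 and 1.27, each past the test), and the mean of the 3 probes was 0.55 higher, so the fall counted for Ifnar1 in PGCs rests on its brightest probe.

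Ifnar2, the chain with the higher affinity for interferon and the partner of JAK1, measured -1.85, -2.08 and -1.93 in PGCs, -0.68, -0.72 and -0.67 in Max knockdown ES cells, and 0.12, 0.26 and 0.16 in control ES cells. PGC arrays were lowest, Max knockdown arrays intermediate and control arrays highest. It fell in PGCs (-2.13 ± 0.09, adjusted p = 1.2e-07 against control) and in Max knockdown cells (-0.87 ± 0.09, adjusted p = 0.00016). In the RefSeq annotation Ifnar2, Il10rb, Ifnar1 and Ifngr2 lie in that order in a cluster of cytokine receptor genes. Of these 4 neighbours Ifnar1 alone rose in Max knockdown cells: Il10rb, a shared chain of the type III interferon and IL-10 receptors, fell by 0.82 and Ifngr2, a chain of the type II interferon receptor, fell by 1.63 (adjusted p = 0.013 and 6.4e-05).

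**Figure D2:**
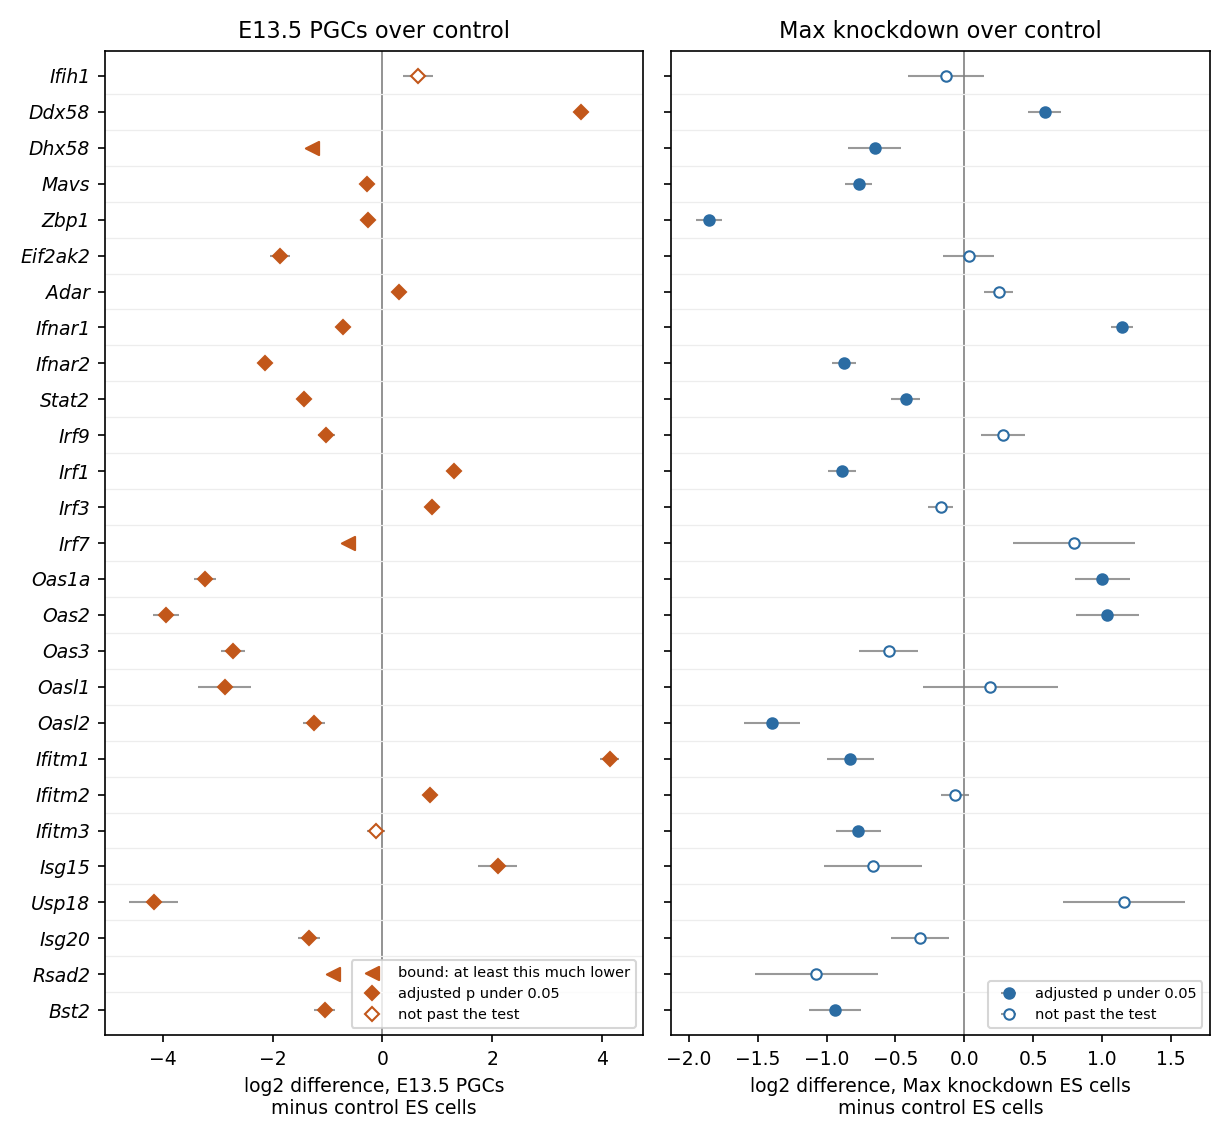
Log2 difference of each tested gene with its SE, E13.5 PGCs minus control ES cells on the left and Max knockdown minus control ES cells on the right (x axes in log2 units on different scales, 1 row per gene). Filled symbols passed adjusted p under 0.05 and open symbols did not; arrowheads mark Dhx58, Irf7 and Rsad2, which were dim on every PGC array and are drawn at their bound. PGC differences reach from -4.17 for Usp18 to 4.14 for Ifitm1, and knockdown differences from -1.85 for Zbp1 to 1.16 for Usp18, which was not called.

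Oas genes encode enzymes that sense double-stranded RNA and make the second messenger that activates RNase L. Oas1a read -1.24, -1.11 and -0.87 in PGCs, 2.97, 3.09 and 3.44 in Max knockdown ES cells, and 1.77, 2.31 and 2.43 in control ES cells. The groups were separate, with Max knockdown cells highest and PGCs lowest. Oas1a rose in Max knockdown cells (1.00 ± 0.20, adjusted p = 0.0045) and fell in PGCs, to 9.44-fold below control (-3.24 ± 0.20, adjusted p = 1.1e-06). Its other probe gave 0.99 and -3.66 for the same comparisons. Oas1a belongs to a family of near-identical neighbours, so the signal of its probes may include other Oas1 transcripts.

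Oas2 followed the same order, at -3.41, -3.92 and -3.62 in PGCs, 0.97, 1.28 and 1.73 in Max knockdown ES cells, and -0.05, 0.40 and 0.53 in control ES cells. It rose in Max knockdown cells (1.04 ± 0.23, adjusted p = 0.0074) and fell in PGCs, to 15.4-fold below control (-3.94 ± 0.23, adjusted p = 7.8e-07) and 31.6-fold below Max knockdown cells. Oas3, which favours long double-stranded RNA, was instead highest in control ES cells, at -5.24, -4.89 and -4.36 in PGCs, -2.91, -2.56 and -2.49 in Max knockdown ES cells, and -2.21, -2.16 and -1.94 in control ES cells. Its PGC signal was well above background on 1 of 3 arrays. Oas3 fell in PGCs (-2.73 ± 0.22). It passed the filter through the ES cell arrays alone, where it was higher, so no p is given for that fall. Its difference in Max knockdown cells did not pass the test although the arrays did not overlap (-0.55 ± 0.22, adjusted p = 0.074). Oas2, Oas3 and Oas1a lie in 1 gene cluster, with the other Oas1 genes between Oas3 and Oas1a.

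The Oas-like genes lack synthetase activity in Oasl1, which in mouse is known to repress Irf7 translation, and retain it in Oasl2. Oasl1 had levels of -2.90, -4.64 and -2.78 in PGCs, -0.72, -0.54 and 0.13 in Max knockdown ES cells, and -1.03, -0.52 and -0.14 in control ES cells. It fell in PGCs (-2.87 ± 0.49, adjusted p = 0.00063), with PGC 2 the lowest array, and the ES cell groups overlapped (0.19 ± 0.49, adjusted p = 0.79). Oasl2 read -0.62, -0.99 and -0.61 in PGCs, -1.19, -1.08 and -0.41 in Max knockdown ES cells, and 0.52, 0.39 and 0.59 in control ES cells. All PGC and Max knockdown arrays lay below all control arrays, and the PGC and Max knockdown arrays overlapped. Oasl2 fell in PGCs (-1.24 ± 0.20, adjusted p = 0.00052) and in Max knockdown cells (-1.39 ± 0.20, adjusted p = 0.001), and the difference between these groups did not pass the test (0.15 ± 0.20, adjusted p = 0.52). Oas1g was well above background on 1 of 9 arrays (Max knockdown 4, at -3.13).

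The interferon-induced transmembrane genes, neighbours in 1 cluster, encode membrane proteins that block virus entry, and Ifitm1 and Ifitm3 (fragilis) are also known as genes of mouse PGCs. Ifitm1 measured 6.22, 6.45 and 6.31 in PGCs, 1.36, 1.43 and 1.28 in Max knockdown ES cells, and 2.60, 2.08 and 1.87 in control ES cells. PGCs stood far above both ES cell groups, 17.6-fold over control (4.14 ± 0.17, adjusted p = 1.3e-07) and 31.3-fold over Max knockdown cells. Between the ES cell groups it fell in Max knockdown cells (-0.83 ± 0.17, adjusted p = 0.0056). Ifitm3 had levels of 2.97, 3.15 and 2.87 in PGCs, 1.98, 2.48 and 2.59 in Max knockdown ES cells, and 3.11, 3.25 and 3.00 in control ES cells. Its PGC and control arrays overlapped (-0.12 ± 0.17, adjusted p = 0.51), while Max knockdown arrays lay below both groups: Ifitm3 fell in Max knockdown cells against control (-0.77 ± 0.17, adjusted p = 0.0065) and rose in PGCs against Max knockdown cells (0.65 ± 0.17, adjusted p = 0.0063). Ifitm2 rose in PGCs (0.86 ± 0.10, adjusted p = 6.3e-05), a rise that was lost on the spike-in scale (-0.09), and did not pass the test in Max knockdown cells (-0.06 ± 0.10, adjusted p = 0.66). Differences between the cluster members were not tested.

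Isg15 encodes a ubiquitin-like protein that is attached to other proteins, and Usp18 the protease that removes it and also dampens IFNAR2 signalling. Isg15 read 2.43, 2.12 and 2.63 in PGCs, -0.72, -0.76 and 0.37 in Max knockdown ES cells, and -0.14, 0.11 and 0.91 in control ES cells. PGC arrays lay above all ES cell arrays, 4.29-fold over control (2.10 ± 0.36, adjusted p = 0.00064; 1.15, adjusted p = 0.058, on the spike-in scale) and its other probe rose as well. The ES cell groups overlapped (-0.66 ± 0.36, adjusted p = 0.18), with Max knockdown 4 and control 3 above the others of their groups. Usp18 read -5.47, -5.23 and -5.10 in PGCs, -0.13, -0.54 and 0.86 in Max knockdown ES cells, and -1.82, -1.24 and -0.22 in control ES cells. It was well above background on 1 of 3 PGC arrays and on all ES cell arrays. Usp18 fell in PGCs, both against control (-4.17 ± 0.44) and against Max knockdown cells (-5.33 ± 0.44). It passed the filter through the ES cell arrays alone, where it was higher, so no p is given for these differences. With 2 of 3 PGC arrays not above background the size is uncertain, at -6.30 to -3.17 over the alternative settings for the second difference. Its difference in Max knockdown cells did not pass the test (1.16 ± 0.44, adjusted p = 0.068). In PGCs the modifier and its protease thus changed in opposite directions.

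Further antiviral effectors were lower in PGCs. Bst2 encodes tetherin, which holds budding virus on the cell surface, and measured 3.33, 3.59 and 3.40 in PGCs, 3.32, 3.35 and 3.99 in Max knockdown ES cells, and 4.43, 4.35 and 4.70 in control ES cells. All PGC and Max knockdown arrays lay below all control arrays. It fell in PGCs (-1.05 ± 0.19, adjusted p = 0.00091) and in Max knockdown cells (-0.94 ± 0.19, adjusted p = 0.0049), and these groups overlapped. Isg20, an RNA exonuclease, read -3.19, -3.01 and -2.69 in PGCs, -2.13, -2.11 and -1.60 in Max knockdown ES cells, and -1.69, -1.89 and -1.30 in control ES cells. It fell in PGCs (-1.34 ± 0.21, adjusted p = 0.00037) and did not pass the test in Max knockdown cells (-0.32 ± 0.21, adjusted p = 0.26).

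Rsad2 encodes viperin, which makes a chain-terminating nucleotide, and its levels were -6.63, -7.07 and -6.23 in PGCs, -5.96, -5.59 and -4.44 in Max knockdown ES cells, and -4.87, -4.33 and -3.58 in control ES cells. It was well above background on 0 of 3 PGC arrays, 1 of 3 Max knockdown arrays and 3 of 3 control arrays. In PGCs Rsad2 was at least 1.87-fold lower than in control; it passed the filter through the control arrays alone, so no p is given. In Max knockdown cells the difference did not pass the test (-1.07 ± 0.45, adjusted p = 0.089). Ifit1 and Ifit2, which bind foreign RNA caps and ends, were above background on no array, and Ifit3 on 2 of 9 (Max knockdown 4 at -2.95 and control 3 at -5.63).

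**Figure D3:**
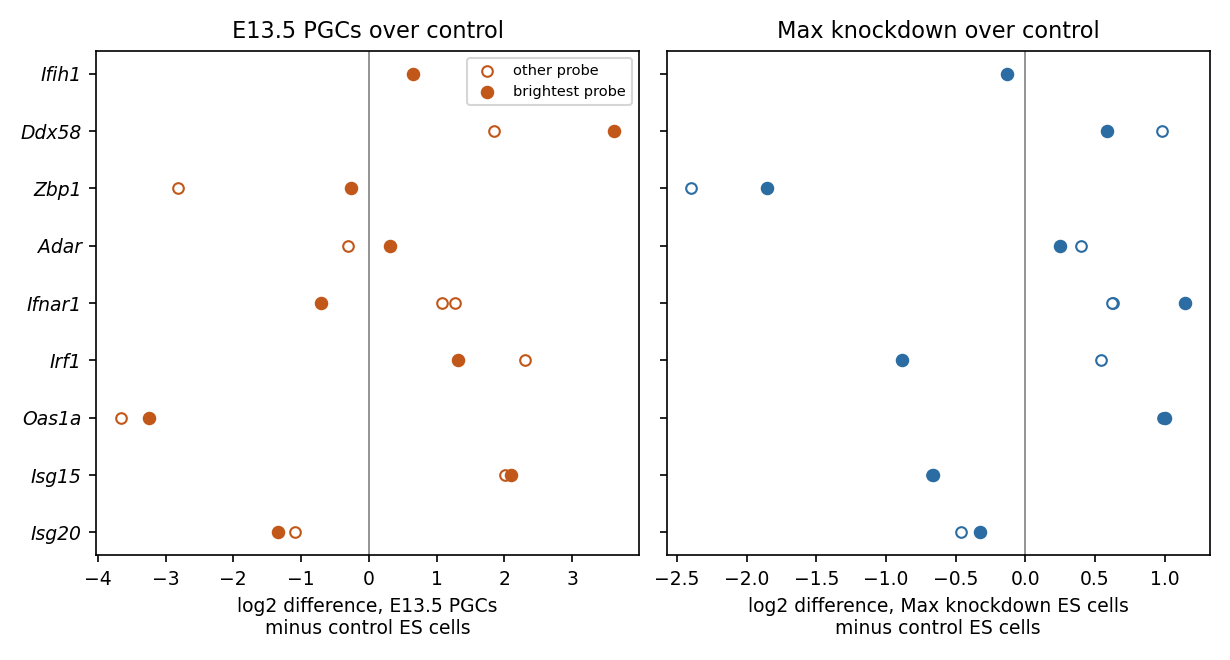
Log2 differences of each probe for the genes with more than 1 probe and at least 1 tested, E13.5 PGCs minus control ES cells on the left and Max knockdown minus control ES cells on the right (x axes in log2 units on different scales); the filled symbol is the brightest probe, used in the text, and open symbols are the other tested probes. Probes of Ifnar1 and Adar lie on both sides of 0 in PGCs and those of Irf1 in Max knockdown cells, while those of Oas1a, Isg15 and Isg20 lie close together.

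The ES cell arrays were hybridised on separate slides, per the file headers: slide 1 held Max knockdown 1 and 2 and control 1 and 2, and slide 2 held Max knockdown 4 and control 3. PGC 1 lay on slide 3 and PGC 2 and 3 on slide 4, so slide and group cannot be told apart for PGCs. Of the 27 genes 19 were higher on slide 2 than on slide 1 in both ES cell groups, against 43.3% of all tested genes. In a fit of the slide difference, added after the data were seen, 12 of the 27 were higher and 0 lower on slide 2 at an unadjusted p under 0.05 (13% of all genes higher and 20.3% in either direction), and 0 were called after adjustment in limma (lowest adjusted p = 0.071). The differences were 1.25 for Usp18, 1.18 for Rsad2, 1.14 for Irf7 and 1.02 for Isg15, and -0.03 for Zbp1 and 0.00 for Ifnar2. The single arrays on which Oas1g and Ifit3 exceeded background were on slide 2 as well. Whether the slide stands for a hybridisation, a culture or another difference was not tested.

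**Figure D4:**
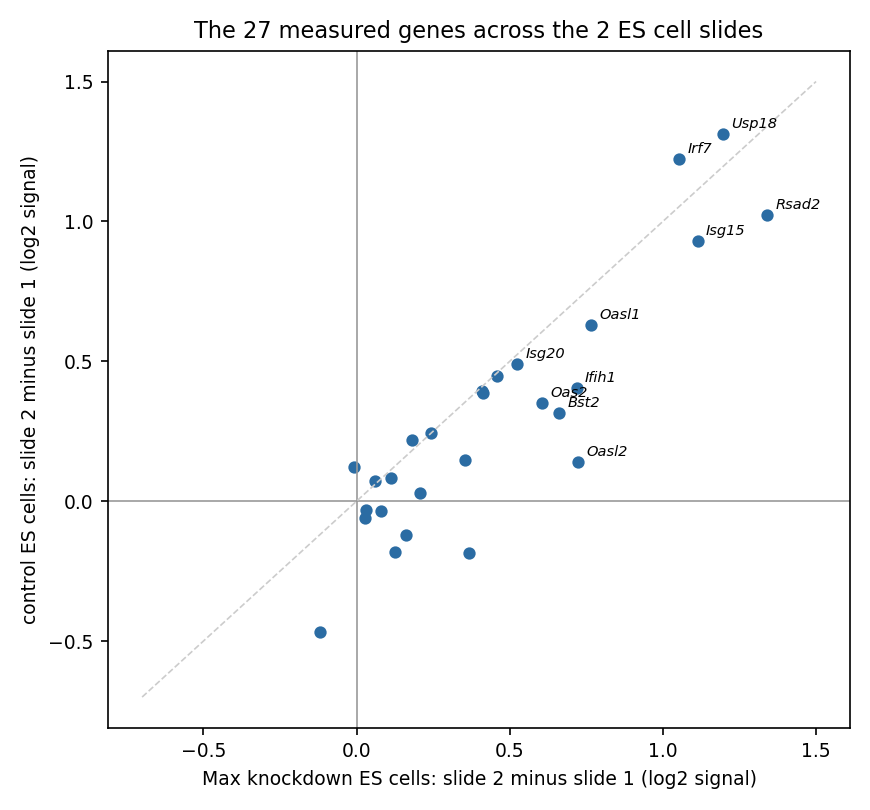
Slide 2 minus slide 1 for each of the 27 tested genes, in Max knockdown ES cells (x axis, log2 units; array 4 minus the mean of arrays 1 and 2) and in control ES cells (y axis, log2 units; array 3 minus the mean of arrays 1 and 2); the dashed line marks equal differences. Usp18, Rsad2, Irf7 and Isg15 stand at the upper right, near the line, and most other genes lie between 0 and 0.7 on both axes.

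Within slides the knockdown differences kept their direction for all 14 called genes. This follows from their ES cell groups not overlapping and is no further test. The log2 difference of Zbp1, Max knockdown minus control, was -1.96 on slide 1 and -1.65 on slide 2. On slides 1 and 2 it was 0.99 and 1.02 for Oas1a, 1.15 and 1.14 for Ifnar1, and -0.95 and -0.40 for Ifitm3. With the slide as a block the 14 genes remained called, and Irf7, Irf9, Isg15, Isg20, Oas3, Rsad2 and Usp18 passed as well. In that fit Usp18 was 1.16 ± 0.19 higher and Isg15 was -0.66 ± 0.10 (SE, adjusted p = 0.0064 and 0.0046). Irf7 was 0.80 ± 0.18 higher and Rsad2 was -1.07 ± 0.19. Irf7 passed the filter through the Max knockdown arrays alone and Rsad2 through the control arrays alone. Each was higher in that group, so the filter favoured its difference and no p is given. Among all tested genes this fit called 20.7% higher and 26% lower. Without the slide 2 ES arrays and with no block, Usp18 and Isg15 passed too (adjusted p = 0.013 and 0.029) and Irf7 did not (adjusted p = 0.1). Rsad2 passed as well, with the same limit from the filter.

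Of other genes of the pathway, taken from lists by role, 84 of 105 with a probe were tested. In PGCs over control 20 rose and 48 fell (23.8% and 57.1%, against 43.2% and 32.4% of all genes; 1 and 53 on the spike-in scale). Over control, 9 rose and 27 fell in Max knockdown cells (10.71% and 32.14%, against 18.2% and 21.9%), and the share called in either direction, 42.9%, lay near the 40.1% of all genes. In PGCs over Max knockdown cells 23 rose and 36 fell (27.4% and 42.9%, against 44.9% and 31.4%). Of the interferon genes themselves 6 of 15 were tested: Ifnl3 and Ifna12 were above background on all 9 arrays and called in no comparison, and Ifnb1 was above background on no ES cell array, with 1 fall in PGCs (Ifnab, -0.53) and 1 in Max knockdown cells (Ifna14, -0.35), both from near-identical families. Among 15 receptor and signalling genes 3 rose and 10 fell in PGCs, where the kinase gene Tyk2 rose by 1.70, Ifngr1 fell by 1.69 and Socs3, an inhibitor of JAK signalling that LIF induces, fell by 7.46. In Max knockdown cells 1 rose and 4 fell, among them Ifnlr1, the specific chain of the type III receptor (-0.54). Of this list 86.7% were called in PGCs over control and 33.3% in Max knockdown cells, against 75.6% and 40.1% of all tested genes. LIF was in the ES cell medium, per the labels.

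Among 13 adaptors and kinases of RNA sensing 3 rose and 5 fell in PGCs, and 2 rose and 3 fell in Max knockdown cells. The shares called in either direction, 61.5% and 38.5%, compare with 75.6% and 40.1% of all tested genes. Myd88, the adaptor of most Toll-like receptors, was -2.35 in PGCs and 0.40 in Max knockdown cells over control. Traf3 and Azi2, which link adaptors to the kinase TBK1, rose in PGCs by 1.32 and 1.45. Prkra, which encodes the PKR activator PACT, fell by 1.16 and Ticam1, the adaptor of TLR3, by 0.79 in Max knockdown cells. Among 12 DNA sensing genes 7 rose and 5 fell in PGCs, with log2 differences of 1.58 for Samhd1, which degrades nucleotides, 1.36 for Polr3a, a subunit of RNA polymerase III, and -2.77 for Sting1, the adaptor of cytosolic DNA sensing. In Max knockdown cells 1 rose and 3 fell, with Sting1 at -0.63, Rnaseh2a at -0.55 and Polr3f at 0.40. Of the DNA sensing genes 100% were called in PGCs over control and 33.3% in Max knockdown cells, beside the same shares of all genes.

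Among 38 other interferon-induced genes 7 rose and 27 fell in PGCs, and 5 rose and 16 fell in Max knockdown cells. The shares called in either direction, 89.5% and 55.3%, compare with 75.6% and 40.1% of all tested genes. In PGCs H2-K1, a class I antigen-presenting molecule, fell by 4.10, Psmb9, an immunoproteasome subunit, fell by 4.07 and Irgm2, an immunity GTPase, was at least 21.8-fold lower. In Max knockdown cells the immunoproteasome genes Psmb8 and Psmb10 fell by 3.06 and 1.18 while H2-D1, a further class I molecule, rose by 1.61. H2-K1 rose there too, by 0.93. H2-K1 and H2-D1 differ between mouse strains and resemble each other, and the PGCs were of another strain than the ES cells, so their probes' match to each strain was not tested.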

How the data were processed

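RNA from 3 E13.5 PGC samples, 3 Max knockdown and 3 control ES cell samples was purified with the RNeasy micro kit, and 100 ng of each was labelled with Cy3 using the Agilent Low Input Quick Amp kit with spike-in RNAs, per the labels' protocols. The authors' deposited scanner files hold spot intensity values from Agilent Feature Extraction 10.7.3.1 (background-corrected processed signals, median signals and detection flags), per the file headers. A deposited table of log2 values of the same arrays followed the log2 processed signals, scaled per array and centred per probe (r = 0.99994 to 0.99999 between arrays' differences). Its column medians were 0, 0.34 and 0.39 in PGCs 1 to 3, -0.12, 0 and 0 in Max knockdown 1, 2 and 4, and -0.02, -0.07 and 0 in control 1 to 3, and its further steps are not given in the sources used here.

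Spots were averaged per probe, log2 signals were set relative to each array's 75th percentile, and each gene was represented by its brightest probe. Probes were named through their RefSeq accession (26012 of 39364 probes). Genes well above background on every array of at least 1 group were tested in limma 3.58.1 (R 4.3.3) over all 9 arrays, with Benjamini-Hochberg adjustment at 0.05. A gene dim on every array of a group has a fold written as "at least", measured against the lowest signal well above background on those arrays. The fit was tested on simulated data. Values were given for genes called in Max knockdown against control, for genes called and at least 2-fold changed in PGCs, and for the sensors and signalling genes in any case; up to 3 genes with the smallest adjusted p were named per other list. The members and lists were chosen with earlier results of these data known. The number of arrays, signals near background and disagreement between probes limit the precision.

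Same-numbered Max knockdown and control arrays deviated together (r = 0.37 and 0.39 for numbers 1 and 2, both on slide 1), and PGC arrays shared only a number with the others (r = -0.03 to 0.02). Alternatives were quantile normalization, spike-in scaling, normexp background correction (offset 50) on the median signals, other filters, the mean of probes, an intensity trend, only the groups compared, the deposited table, slide and replicate blocks, and leaving out single arrays.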

Additional observations from a re-analysis of the deposited data

How the results depend on the processing

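Spike-in scaling changed the most. Under it, 1 of the 27 genes (Zbp1) was called in Max knockdown cells over control in place of 14, and 5 of the other pathway genes in place of 36. The knockdown differences themselves moved little: Oas1a was 1.02 in place of 1.00 and Mavs -0.75 in place of -0.77. Their SE was wider, at 0.51 in place of 0.10 for Irf1. The 75th percentile lay 0.59 to 0.77 log2 units below the spike-ins on slide 1 and 1.65 to 1.83 below them on slide 2, and with the slide as a block (an alternative added after the data were seen) the counts were 18 and 30. The share of all tested genes called in that fit was not computed. Also on the spike-in scale, the PGC differences from control were -0.089 for Ifitm2, -0.041 for Irf3 and -0.65 for Adar, and those from Max knockdown cells were -0.041 for Ifitm2, -0.32 for Ifitm3, -0.18 for Ifih1 and -0.48 for Mavs, each opposite in sign to the reported value; rises of Isg15 and Irf1 over control lost their call. With the mean of probes, Ifnar1 was 0.55 higher in PGCs than in control and Adar -0.32 in PGCs relative to Max knockdown cells, both opposite in sign. Without the slide 2 ES arrays 23 other pathway genes were called in Max knockdown cells in place of 36. The cause of these changes was not tested.

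Leaving out 1 array at a time gave 13 to 16 of the 27 genes called in Max knockdown over control and 26 to 31 other pathway genes, 22 to 25 and 62 to 68 in PGCs over control, and 23 to 24 and 54 to 60 in PGCs over Max knockdown cells. With the replicate number as a block, the counts were 18 and 30 for Max knockdown over control, 23 and 67 for PGCs over control, and 23 and 56 for PGCs over Max knockdown cells. The share of all tested genes called was not computed for these fits or for the fit without the slide 2 ES arrays. A change in these counts is therefore not a result about the listed genes. Of 1414 values of single genes under settings without spike-in scaling, 1322 kept direction and side of the threshold, 48 lost their call, 34 gained one, 2 reversed, and 8 untested values within a slide moved by more than the spread between replicates. Calls lost in PGCs over control were those of Zbp1, Adar, Mavs and Irf7 (under normexp, adjusted p = 0.056); in PGCs over Max knockdown, those of Ifih1, Rsad2, Ifitm3 and Mavs; in Max knockdown over control, those of Dhx58, Stat2 and Irf1. Signals near background limit Irf7, Rsad2, Dhx58, Ifih1 and the 5 untested genes.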
